A study of Homo sapiens with 6 samples.

Results

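The genes described here fold, modify and clear proteins in the endoplasmic reticulum (ER) and shape that organelle. They were taken from a list of 43 gene symbols, and 39 of them had a probe set assigned to a single gene, out of 19775 genes measured in all. PDIA5, TXNDC5, SYVN1 and ATL2 had none and were not analysed here. The cells were SW480, an established human colorectal adenocarcinoma line, transfected either to overexpress CPEB3, a protein that binds cytoplasmic polyadenylation elements in mRNAs and regulates translation, or with a negative control (NC). Each group had 3 arrays (Affymetrix HG-U133 Plus 2.0), labelled as biological replicates. The labels give no vector, clone, culture or day, so each p-value reflects how far these 6 samples scatter, which may be partly technical. Both groups share the line and the culture medium with serum, and no agent that causes ER stress is named in the labels.

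Proteins that enter the ER are bound by chaperones of the HSP70 and HSP90 classes and by the lectin chaperones calnexin and calreticulin, and disulfide bonds are formed by thiol oxidoreductases. Chains that do not fold are drawn back through the membrane and degraded by the proteasome, which is called ER-associated degradation. When unfolded chains accumulate, the sensors ATF6, IRE1 (ERN1) and PERK (EIF2AK3) start the unfolded protein response: ATF6 and the IRE1-spliced form of XBP1 switch on chaperone and degradation genes, while PERK acts through ATF4 and DDIT3. Secretory epithelia and many carcinomas keep part of this response active.

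ATF6 and XBP1 are known to act on short promoter elements, and these were looked up for the listed genes in RefSeq promoter windows (GRCh38.p14) that run from 250 bases before to 50 bases after each gene start. The ER stress element I is CCAAT, any 9 bases, then CCACG, and the ER stress element II is ATTGG, any base, then CCACG; both strands were searched for exact matches. The table held 50 windows for 40 of the 43 genes, not for PDIA3, DERL1 and DERL3. Element I stood in 10 of these 50 windows (20%) and in 27 of all 35116 windows (0.0769%), and element II in 3 of 50 (6%) and in 19 of 35116 (0.0541%). Several of these genes are the textbook examples on which the elements were defined, so these shares describe the list and are not a result of the arrays. The stretches below, written in the direction of the gene, show the match in the genes that passed the array test and in the main chaperones HSPA5 and HSP90B1. Capitals mark the fixed letters of the element; where the match lies on the opposite strand they read CGTGG and ATTGG (element I) or CGTGG and CCAAT (element II).
SDF2L1, element II, chr22:21642104-21642134, plus strand: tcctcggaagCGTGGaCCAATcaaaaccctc
CALR, element I, chr19:12938374-12938412, plus strand: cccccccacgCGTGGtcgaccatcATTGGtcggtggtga
PDIA6, element I, chr2:10812843-10812881, minus strand: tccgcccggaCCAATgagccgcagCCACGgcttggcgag
HERPUD1, element II, chr16:56932015-56932045, plus strand: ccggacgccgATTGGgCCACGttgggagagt
CRELD2, element I, chr22:49918544-49918582, plus strand: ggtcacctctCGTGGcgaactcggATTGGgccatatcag
CANX, element I, chr5:179698768-179698806, plus strand: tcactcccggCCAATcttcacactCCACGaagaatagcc
XBP1, element I, chr22:28800593-28800631, minus strand: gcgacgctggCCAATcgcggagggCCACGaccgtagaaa
HSPA5, element I, chr9:125241381-125241419, minus strand: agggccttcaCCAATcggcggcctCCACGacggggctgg
HSP90B1, element I, chr12:103930206-103930349, plus strand: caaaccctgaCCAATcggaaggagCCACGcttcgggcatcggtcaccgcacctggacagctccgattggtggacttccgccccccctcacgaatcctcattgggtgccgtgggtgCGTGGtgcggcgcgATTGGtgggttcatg

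Before the genes themselves, some facts of the arrays bear on every value. Of 13 colorectal epithelial markers, 10 lay above the array median in all 6 arrays, EPCAM among them at 11.13 against 11.09, while LGALS4, LGR5 and ASCL2 did not. With the CPEB3 label 3 of these 13 were higher and 0 lower: KRT20 by 0.87 (1.83-fold), AXIN2 by 0.53 (1.44-fold) and KRT18 by 0.26. The 13 markers' summed linear intensity was 8756 to 9047 there and 7909 to 8045 with the NC label. Leukocyte and plasma cell markers summed to 183 to 196 against 169 to 177, with 5 of 13 above the array median in all arrays, ITGAM higher by 0.32 and 0 lower. Their log2 levels ran from JCHAIN at 0.90 against 0.95, with the defining marker PTPRC at 1.62 against 1.48, to CD79A at 5.30 against 5.15. Fibroblast and endothelial markers summed to 246 to 258 against 225 to 240, with 4 of 14 above the array median in all arrays (COL1A1 at 6.48 against 6.32), DCN higher by 0.30 and 0 lower. The log2 gap between the 3' and 5' probe sets of ACTB, a sign of RNA integrity, was 3.40 ± 0.15 against 3.24 ± 0.03 (SD, n = 3 each). For GAPDH the same gap was much smaller, at 0.07 ± 0.06 against -0.01 ± 0.03 (SD, n = 3 each). The control RNAs spiked in at hybridization differed by -0.18 on average. The part of these differences in the results below was not tested. CPEB3 itself, the check of the labels, was not higher where overexpression is labelled: at its brightest probe set the log2 intensity was 5.37 ± 0.03 against 5.32 ± 0.07 (SD, n = 3 each), and its 3 dimmer probe sets were lower, by -1.44 (2.31 ± 0.21 against 3.75 ± 0.21; limma over all probe sets, adjusted p = 7.80e-05), -0.35 and -0.25. The labels give no vector, so whether these probe sets would read an introduced CPEB3 mRNA is not known. The groups are therefore named by their labels throughout. A change in all cells and a change in the share of cells that express a gene cannot be told apart in these samples.

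Of the ER genes that passed the test, most were higher with the CPEB3 label, and by small amounts. A Benjamini-Hochberg adjusted p under 0.05 in limma was reached by 20 of the 39 (51.3%), against 23.3% of all genes tested. Of these 20, 15 were higher with the CPEB3 label (38.5%, against 10.9% of all genes) and 5 lower (12.8%, against 12.5%). The median difference was 0.09 on the log2 scale over the 39 genes and 0.02 over all genes. The groups did not overlap in 26 of the 39, 18 above and 8 below (39.1% of all genes, 19.9% above and 19.1% below), and all 20 genes past the threshold were among these 26. Only SUMF1 and ATL3 changed by 1.5-fold or more with an adjusted p under 0.05, a mark passed by 3.7% of all genes; the other 18 called genes changed 1.15-fold to 1.49-fold. Replicates of the 39 lay close together, with a median standard deviation within groups of 0.06 on the log2 scale. Over all genes this median was 0.09. Of the 39 genes, 0 lay below the array median, whereas all genes include dim ones. The shares of all genes given here and below are thus not matched for intensity or scatter. How much of the excess among the 39 comes from this was not tested. When each array was centred on its spike-ins, the median of all genes moved from 0.02 to 0.20, 23 of the 39 were higher and 2 lower, and the background became 39.3% higher and 5.25% lower.

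**Figure D1:**
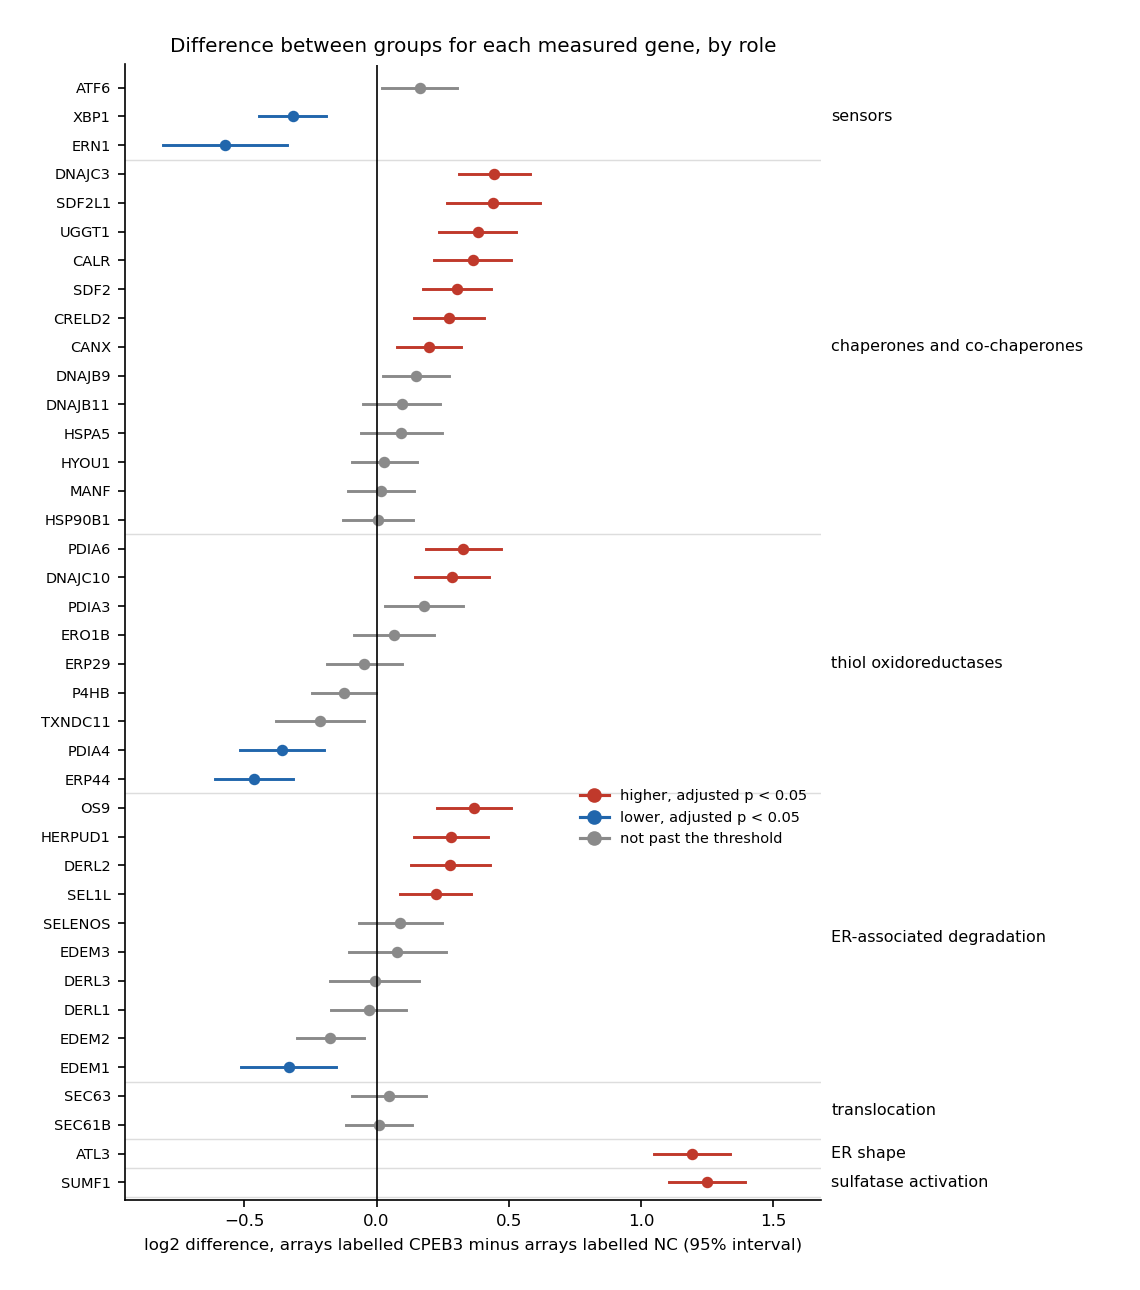
Log2 difference (arrays labelled CPEB3 minus arrays labelled NC, x axis) with its 95% interval for each of the 39 measured genes, grouped by role (3 arrays a group). Red genes were higher and blue genes lower at a limma adjusted p under 0.05; chaperones lie at or above 0, ERN1 and XBP1 below it, and SUMF1 and ATL3 stand apart at 1.25 and 1.19.

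Among the sensors, ERN1 and XBP1 fell and ATF6 did not pass. ERN1, the kinase and RNase that splices XBP1 mRNA, measured 5.03, 5.24 and 5.25 in the arrays labelled CPEB3 and 5.58, 5.71 and 5.96 in those labelled NC (log2 intensity). Every array labelled CPEB3 lay below every array labelled NC, with a difference of -0.57 (SE 0.10, limma, Benjamini-Hochberg adjusted p = 0.00393). The fall was seen at its brightest probe set; the other 2 differed by 0.01 and 0.09. Averaging all 3 probe sets of ERN1 gave -0.16, which did not pass (limma, adjusted p = 0.0983). XBP1, the transcription factor that IRE1 activates, was at 7.44, 7.38 and 7.46 against 7.77, 7.74 and 7.72. The arrays did not overlap, and XBP1 was 1.25-fold lower (difference -0.32, SE 0.06; limma, adjusted p = 0.00344). That call was lost with spike-in centring (-0.14, limma, adjusted p = 0.181) and with the mean of the gene's probe sets (-0.08). Its other, dim probe set lay at 2.99 against 2.84, a difference of 0.15 in the opposite direction that did not pass. The array reads XBP1 mRNA in total, so its splicing was not measured. ATF6, the membrane-bound factor released by proteolysis, measured 7.08, 6.99 and 7.05 against 6.86, 6.82 and 6.96. These arrays did not overlap either, but the difference of 0.16 (95% interval 0.02 to 0.30) did not pass (limma, adjusted p = 0.0945), and of the gene's 4 probe sets a pair lay above and a pair below 0. ATF6 did pass with spike-in centring (0.34; limma, adjusted p = 0.00493), with quantile normalization once more (0.21; 0.0292), without dim genes (0.16; 0.0463) and with an intensity trend (0.16; 0.0441).

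Of the 13 chaperones and co-chaperones, 7 were higher (53.8%, against 10.9% of all genes) and 0 lower (against 12.5%), with a median difference of 0.20. With the mean of all probe sets 6 were higher (46.2%, against 9.98% of all genes) and 0 lower, with a median of 0.09. DNAJC3, a J-domain partner of the HSP70 chaperone HSPA5, measured 8.76, 8.73 and 8.72 in the arrays labelled CPEB3 and 8.33, 8.33 and 8.22 in the arrays labelled NC. All 3 arrays of one group lay above all of the other; the rise was 1.36-fold (difference 0.44, SE 0.06; limma, adjusted p = 7.44e-04), and all 4 of its probe sets were higher. SDF2L1, a luminal protein that works with J-domain co-chaperones to keep clients soluble, was at 9.21, 9.23 and 9.30 against 8.65, 8.92 and 8.86. It rose 1.36-fold with no overlap (limma, adjusted p = 0.00352), with NC replicate 1 the lowest of its arrays. Its paralog SDF2 measured 7.28, 7.20 and 7.20 against 6.93, 6.95 and 6.90, a rise of 1.23-fold (limma, adjusted p = 0.00483).

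CALR, CANX and UGGT1 belong to the lectin cycle, in which calreticulin and calnexin hold glycoproteins and UGGT1 sends unfolded ones back for another round. At their brightest probe sets these 3 were higher. Genes of the sugar-trimming glucosidases and their subunits did not pass: GANAB differed by 0.04, PRKCSH by 0.04 and MOGS by 0.12 (limma, adjusted p = 0.645, 0.753 and 0.296). These glucosidase genes were named after their values were seen. CALR measured 9.70, 9.58 and 9.73 against 9.24, 9.32 and 9.35. It rose 1.29-fold (SE of the log2 difference 0.06; limma, adjusted p = 0.00354), and all 3 of its probe sets were higher. CANX was at 11.41, 11.39 and 11.40 against 11.18, 11.21 and 11.21, with very close replicates and no overlap. Its 1.15-fold rise was the least secure of the group (limma, adjusted p = 0.0261): the call was kept without NC replicate 1 (0.0487) and lost without any other single array (limma, adjusted p from 0.0642 to 0.0762). Averaged over 5 probe sets the CANX difference was 0.04. UGGT1, the folding sensor, measured 8.45, 8.40 and 8.54 against 8.01, 8.10 and 8.13 at its brightest probe set, a rise of 0.38 (SE 0.06; limma, adjusted p = 0.00283). A pair of dimmer UGGT1 probe sets went the opposite way, at 6.28 against 6.53 and 5.85 against 6.11 (limma over all probe sets, adjusted p = 0.0328 and 0.027), and with the mean of all 5 the difference was 0.04. UGGT1 was the only gene of the 39 with probe sets past the threshold in both directions.

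CRELD2, an ER protein induced by stress that carries redox-active cysteine pairs, measured 9.16, 9.10 and 9.18 against 8.83, 8.93 and 8.85, a rise of 1.21-fold without overlap (limma, adjusted p = 0.00905). The other 6 chaperones and co-chaperones did not pass. HSPA5 (BiP), the ER's HSP70 and the classic reporter of the unfolded protein response, was at 11.56, 11.50 and 11.46 against 11.52, 11.36 and 11.35 at its brightest probe set. Those arrays overlap, and the difference was 0.09 with a 95% interval from -0.06 to 0.25 (limma, adjusted p = 0.37). A dimmer HSPA5 probe set was higher, at 7.88, 7.97 and 7.94 against 7.28, 7.38 and 7.47 (difference 0.55; limma over all probe sets, adjusted p = 9.25e-04); with the mean of both, HSPA5 was higher by 0.32 (limma, adjusted p = 0.00152). HSP90B1 (GRP94), the ER's HSP90, measured 10.06, 9.98 and 9.98 against 10.05, 9.96 and 10.00, so the groups overlap. Its difference was 0.00, with a 95% interval from -0.13 to 0.14. HYOU1, a nucleotide exchange factor for HSPA5, differed by 0.03, the HSPA5-binding secreted factor MANF by 0.02, and the J-domain proteins DNAJB11 and DNAJB9 by 0.09 and 0.15. None of these 4 passed (limma, adjusted p from 0.088 to 0.875).

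**Figure D2:**
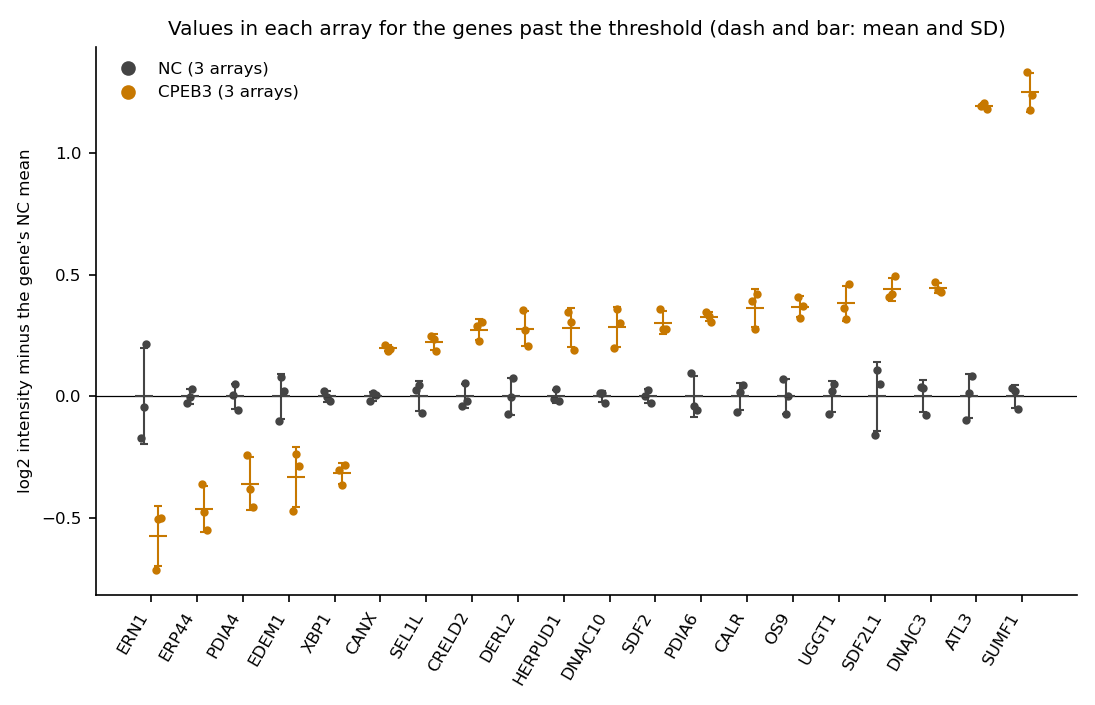
Log2 intensity in each of the 6 arrays (points), as the distance from the gene's NC mean (y axis), for the 20 genes past the threshold, with the mean (dash) and standard deviation (bar) of each group of 3. No gene has an orange point (CPEB3) within the range of its grey points (NC); ERN1 has the widest spread, and 18 of the 20 genes lie within 0.57 of 0 on average.

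The 9 measured thiol oxidoreductases split, with 2 higher (22.2%, against 10.9% of all genes), 2 lower (22.2%, against 12.5%) and 5 not past the threshold. PDIA6, a disulfide isomerase that binds HSPA5, measured 10.08, 10.07 and 10.05 against 9.83, 9.70 and 9.68, a rise of 1.26-fold without overlap (limma, adjusted p = 0.00509). The other 3 PDIA6 probe sets differed by -0.07 to 0.06, and with the mean of all 4 the call was lost (0.09; limma, adjusted p = 0.249). DNAJC10 (ERdj5), a reductase that opens disulfides of degradation clients, was at 7.69, 7.85 and 7.79 against 7.50, 7.50 and 7.46. It rose 1.22-fold (limma, adjusted p = 0.0098). A dim DNAJC10 probe set showed a larger gap, 4.65, 4.69 and 4.60 against 3.66, 3.64 and 3.48 (2.07-fold; limma over all probe sets, adjusted p = 1.78e-05).

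On the falling side, PDIA4 (ERp72), an isomerase with several thioredoxin domains, measured 8.71, 8.57 and 8.50 against 8.96, 9.0 and 8.90. Both of its probe sets were lower, and PDIA4 fell by 0.36 on the log2 scale (limma, adjusted p = 0.00586); spike-in centring left PDIA4 at -0.18, which did not pass (limma, adjusted p = 0.124). ERP44, which retrieves ERO1 oxidases and unassembled clients from the Golgi, was at 7.61, 7.50 and 7.42 against 7.94, 7.97 and 8.0 at its brightest probe set. The difference of -0.46 (SE 0.07; limma, adjusted p = 0.00103) was not shared by its other pair of probe sets, which differed by 0.14 and 0.18 without passing. Averaged over its 3 probe sets ERP44 was at -0.05 and no longer passed.

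PDIA3 (ERp57), the isomerase that works with calnexin and calreticulin, measured 10.22, 10.23 and 10.11 against 10.08, 9.94 and 10.01, apart but not past the threshold (0.18; limma, adjusted p = 0.08). Its 2 dimmer probe sets were higher by 0.40 and 0.53 (limma over all probe sets, adjusted p = 0.00308 and 8.24e-04), and with the mean of all 3 PDIA3 was higher by 0.37. P4HB, the founding disulfide isomerase, and TXNDC11, a thioredoxin-domain protein of the degradation route, lay below the NC arrays without overlap, by -0.12 and -0.21 (limma, adjusted p = 0.133 and 0.0682). Leaving out NC replicate 1 brought TXNDC11 past the threshold (-0.27; limma, adjusted p = 0.0388). ERP29 differed by -0.05 and the oxidase ERO1B by 0.07.

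In ER-associated degradation, 4 of 10 measured genes were higher (40%, against 10.9% of all genes) and 1 was lower (10%, against 12.5%). OS9, a lectin that hands misfolded glycoproteins to the HRD1 ubiquitin ligase, measured 7.89, 7.80 and 7.85 against 7.55, 7.40 and 7.48, a rise of 1.29-fold without overlap (limma, adjusted p = 0.00271). HERPUD1, a membrane scaffold of that ligase, was at 9.60, 9.56 and 9.45 against 9.25, 9.29 and 9.24 (1.22-fold; limma, adjusted p = 0.0105). A second, dim HERPUD1 probe set differed by -0.10, and with the mean of both the call was lost (0.09). SEL1L, the adaptor that holds OS9 at the ligase, measured 7.64, 7.62 and 7.57 against 7.41, 7.43 and 7.32. SEL1L rose 1.17-fold (limma, adjusted p = 0.0245), with 3 of its 4 probe sets higher. That call was lost without CPEB3 replicate 1 (0.21), without CPEB3 replicate 2 (0.22) and without NC replicate 3 (0.19), with limma adjusted p from 0.0742 to 0.0861.

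The derlins are membrane proteins through which clients leave the ER. DERL2 was at 8.58, 8.50 and 8.43 against 8.15, 8.22 and 8.30, and both of its probe sets were higher (1.21-fold; limma, adjusted p = 0.0151, or 0.0576 without CPEB3 replicate 1). DERL1 at its brightest probe set measured 8.18, 8.22 and 8.24 against 8.15, 8.28 and 8.30, which overlap (-0.03; limma, adjusted p = 0.777). A pair of its other probe sets was higher, one at 8.11, 8.17 and 8.17 against 7.71, 7.69 and 7.68, and with the mean of all 4 DERL1 was higher by 0.23 (limma, adjusted p = 0.00787). DERL3 differed by -0.01. EDEM1, a mannosidase-like protein that marks glycoproteins for disposal, fell, at 5.50, 5.74 and 5.69 against 5.87, 6.05 and 6.0. Its difference was -0.33 (limma, adjusted p = 0.0157). The EDEM1 call was lost without CPEB3 replicate 1 (-0.26; limma, adjusted p = 0.0524), without NC replicate 2 (-0.29; 0.0556) and with spike-in centring (-0.15). Its relatives EDEM2 and EDEM3 differed by -0.18 and 0.08, and SELENOS, which brings the VCP ATPase to the membrane, by 0.09. None of these 3 passed (limma, adjusted p from 0.052 to 0.545).

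At the translocon, through which chains enter, SEC61B differed by 0.01 and SEC63 by 0.05 (95% intervals -0.12 to 0.13 and -0.09 to 0.19). In contrast to these, the steepest differences of the list belonged to a gene of ER shape and an enzyme of the ER lumen. SUMF1, which makes the formylglycine that every sulfatase needs in its active site, measured 8.16, 8.0 and 8.07 against 6.86, 6.85 and 6.77. Its groups lay far apart, with a difference of 1.25 (SE 0.06, 2.38-fold; limma, adjusted p = 2.22e-06), read from a single probe set. Among the 15 measured genes of its paralog and the sulfatases, 3 were higher (20%, against 10.9% of all genes) and 0 lower (against 12.5%). The 3 were SUMF2 (0.30), ARSB (0.33) and ARSD (0.28). ARSB was dim, at 3.13 against 2.80, below the array medians of 3.89 to 3.93. With the mean of their probe sets ARSB (0.18) and ARSD (0.17) differed by less but still passed (limma, adjusted p = 0.0298 and 0.0415).

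ATL3, an atlastin GTPase that fuses ER tubules, was examined by each of its 3 probe sets. The brightest measured 7.82, 7.83 and 7.81 in the arrays labelled CPEB3 and 6.53, 6.64 and 6.71 in those labelled NC. The next gave 6.01, 5.91 and 6.0 against 5.65, 5.86 and 5.93, and the dimmest gave 1.98, 2.04 and 1.95 against 1.92, 1.90 and 1.97. The groups were far apart at the brightest and overlapped at both others. In the fit over all 54613 probe sets, of which 14.4% passed, the ATL3 differences were 1.19 (SE 0.07, limma, adjusted p = 5.52e-06), 0.16 (adjusted p = 0.256) and 0.05 (adjusted p = 0.639). Over the 39 genes together, 36 of 97 probe sets passed in that fit, 28 higher and 8 lower (6.59% and 7.86% of all probe sets). Beside the brightest probe sets of the 15 genes that were higher stood 28 others, of which 9 were higher, 2 lower, and 22 above 0. Beside those of the 5 genes that were lower stood 6 others, of which 1 was lower and 5 lay above 0. Of the 27 genes with more than 1 probe set, DNAJC3, CALR, DERL2 and PDIA4 had all of theirs past the threshold in 1 direction.

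**Figure D3:**
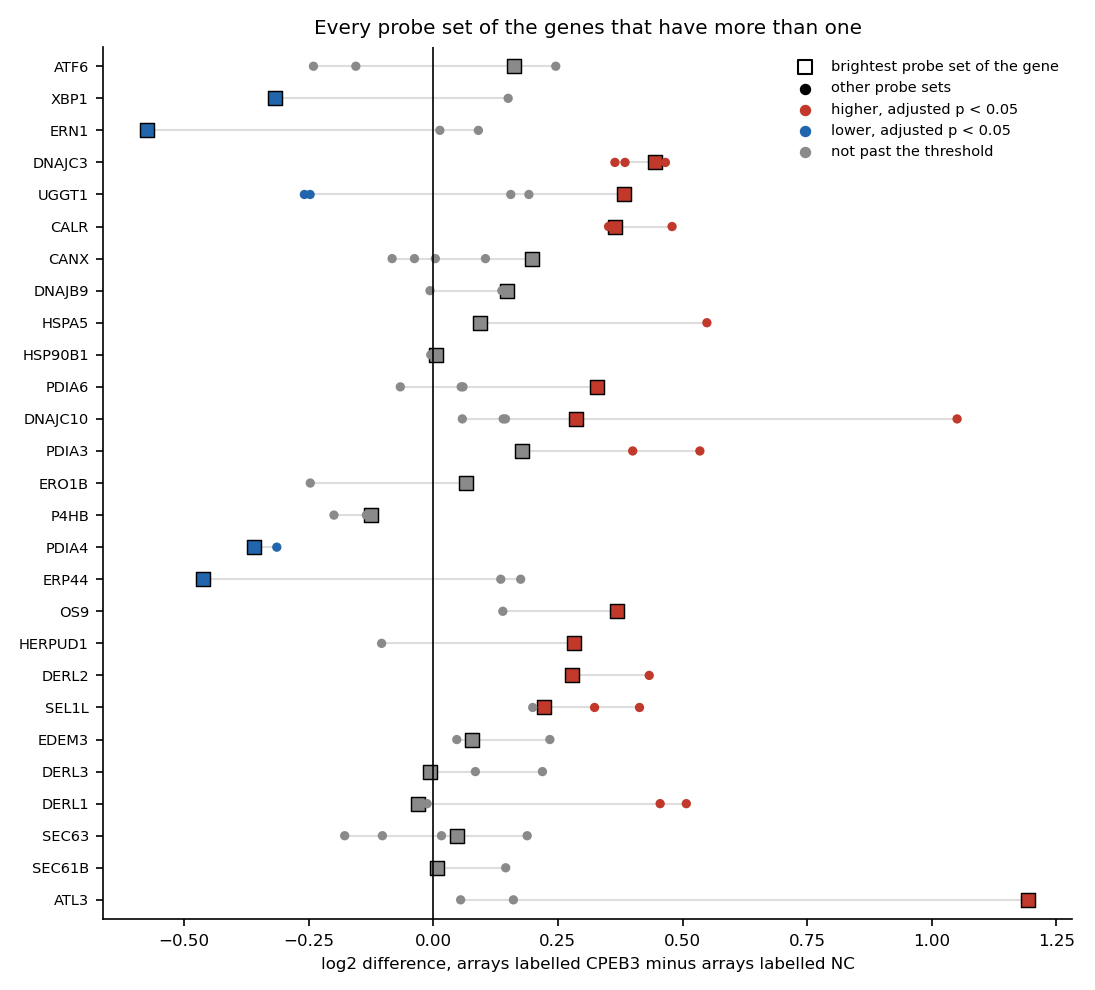
Log2 difference (arrays labelled CPEB3 minus arrays labelled NC, x axis) at every probe set of the 27 genes that have more than 1; squares are the brightest probe set of the gene and circles the others, coloured by limma's call over all probe sets. DNAJC3 and CALR are red throughout, UGGT1 has red and blue points, and the blue squares of ERN1, XBP1 and ERP44 stand beside grey circles above 0. CANX, higher in the fit over genes, is grey here (adjusted p = 0.0575).

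The genes with an exact ER stress element can now be set beside their array values. Of the 11 with element I or II, all of them measured, 6 were higher (SDF2L1, CALR, PDIA6, HERPUD1, CRELD2 and CANX), XBP1 was lower, and HSPA5, HSP90B1, HYOU1 and ERO1B did not pass. Their median difference was 0.20, and 10 of 11 lay above 0. Of the 25 measured genes of the list whose windows hold neither element, 9 were higher and 4 lower, with a median of 0.09. Outside the list, 33 genes had such a match and 26 of them were measured; 0 were higher and 2 lower at limma's threshold, with a median of 0.03. Those 2 were TRIM5 and ZNF143-AS1. Over all genes 10.9% were higher and 12.5% lower, with a median of 0.02. No test was made of these small groups. The UPR element core TGACGTG stood in 4 of the 50 windows (8%) and in 1.97% of all windows. In the windows of the other ER genes described below it stood in 21 of 264 (7.95%), so its share is not particular to this list. In HYOU1 the core overlaps an element II. The C/EBP-ATF element, TGATG, any base, then AAT, stood in 0 of 50 and in 0.991% of all. It also stood in 0 of 33 windows of the PERK and ATF4 arm described below, so its absence does not set this list apart. A match is a description of the sequence, and binding was not measured.

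**Figure D4:**
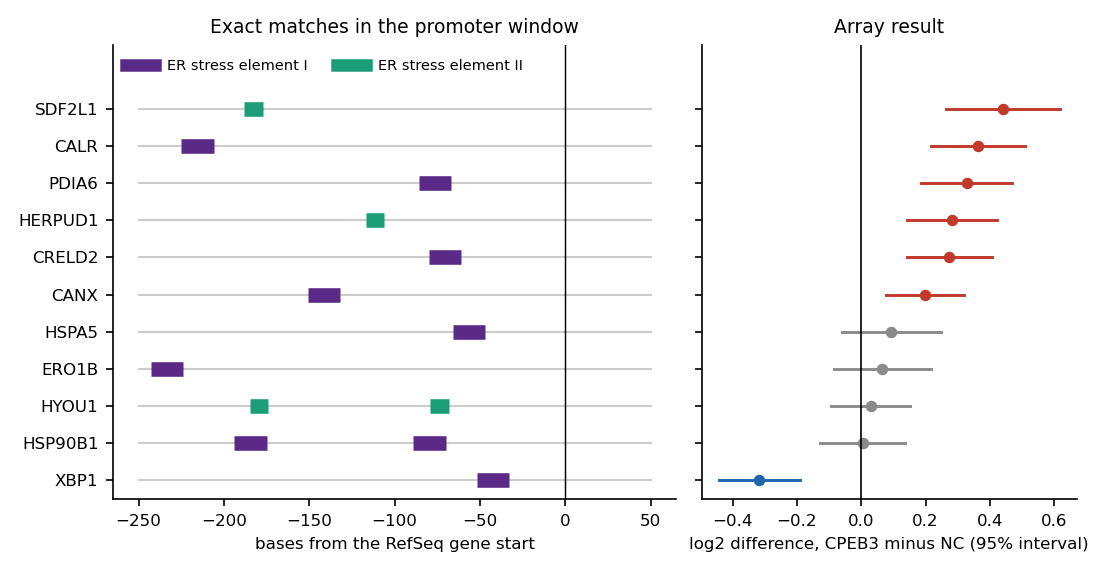
Left, position of each exact ER stress element I (purple) or II (green) in bases from the RefSeq gene start (x axis) for the 11 genes that have one (for CANX, from the nearer of 2 starts); right, the log2 difference of the same gene with its 95% interval, red for higher, blue for lower and grey for not past the threshold. Sites close to and far from the start occur both among genes that were higher and among those that did not pass.

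The genes of 7 other fixed lists, 220 measured and here called the other ER genes, were also more often higher than lower. These lists include sulfatases and regulators such as NFYC and YY1, so not all of their proteins reside in the ER. Of these 220, 48 were higher (21.8%, against 10.9% of all genes) and 16 lower (7.27%, against 12.5%), with a median difference of 0.04. The count of lower genes moved with the processing, to 31 without dim genes or with an intensity trend and 6 without _s_at and _x_at probe sets. It was 10 without CPEB3 replicate 3 or without NC replicate 2. With spike-in centring 3 were lower (1.36%, against 5.25% of all genes) and 109 higher (49.5%, against 39.3%). The list of translocation, signal peptidase and N-glycosylation held the largest share among them, with 16 of 44 higher and 1 lower. MAGT1, a thiol subunit of the oligosaccharyltransferase, rose 1.51-fold, the signal peptidase subunit SEC11C 1.46-fold and the glucosyltransferase ALG6 1.38-fold, while TUSC3, which takes the same place as MAGT1 in that complex, fell by 0.65 on the log2 scale (limma, adjusted p from 1.55e-04 to 9.20e-04). Genes of ER shape and ER-phagy had 8 of 32 higher and 0 lower, among them ARL6IP5 (0.70), the ER-phagy receptor RETREG1 (0.61), REEP6 (0.32) and REEP1 (0.31). Further folding factors had 10 of 45 higher and 5 lower: EMC10 (0.48), FKBP2 (0.43) and EMC2 (0.42) rose, and CLGN, a calnexin relative, fell by 0.88.

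Further degradation genes had 5 of 37 higher and 5 lower (13.5% each), near the shares of all genes (10.9% and 12.5%). Among them were UBE2G2 (0.36), MAN1A1 (0.34), SVIP (0.30) and HERPUD2 (-0.33). With spike-in centring HERPUD2 did not pass (-0.15, limma, adjusted p = 0.177). Genes of COPII export and the KDEL receptors had 3 of 28 higher (10.7%) and 2 lower (7.14%), no more than the shares of all genes. TMED10 (0.37), TMED3 (0.23) and SEC23B (0.21) were higher and SEC24A (-0.27) lower. With the mean of its 4 probe sets TMED3 differed by 0.03 (limma, adjusted p = 0.74). With spike-in centring SEC24A differed by -0.09 (limma, adjusted p = 0.419). Further regulators of the unfolded protein response had 3 of 19 higher and 3 lower (15.8% each). MBTPS2, a protease that releases ATF6, rose by 0.39, and NFYC (-0.38), a subunit of the factor that binds CCAAT, YY1 (-0.27) and CREB3L4 (-0.25) fell. With the mean of their probe sets MBTPS2 (0.14) and YY1 (-0.15) did not pass (limma, adjusted p = 0.0826 and 0.0905). With spike-in centring MBTPS2 kept its call, while NFYC (-0.20), YY1 (-0.09) and CREB3L4 (-0.07) did not pass (limma, adjusted p = 0.0765, 0.432 and 0.464).

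The PERK and ATF4 arm lay on the opposite side. Of its 24 genes, 19 were lower (79.2%, against 12.5% of all genes) and 0 higher (against 10.9%), with a median difference of -0.67. At their brightest probe sets ATF3 was 3.87-fold lower, DDIT4 3.83-fold, PPP1R15A 2.87-fold and DDIT3 2.58-fold. ATF3 had a log2 difference of -1.95 there and of -0.92 with the mean of its 3 probe sets (limma, adjusted p = 4.13e-06). DDIT4 and DDIT3 were each read from a single probe set. ATF4 fell by 0.52 (limma, adjusted p = 4.34e-04), and EIF2AK3, which encodes PERK, differed by 0.17 without passing (limma, adjusted p = 0.137). With spike-in centring this arm still had 17 lower (70.8%) and 3 higher (12.5%). The 13 chaperones and co-chaperones then had 10 higher (76.9%) and 0 lower. Of all genes, 39.3% were higher and 5.25% lower with that centring. The arm and the chaperones were measured on the same arrays, and the difference between the lists was not tested.

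**Figure D5:**
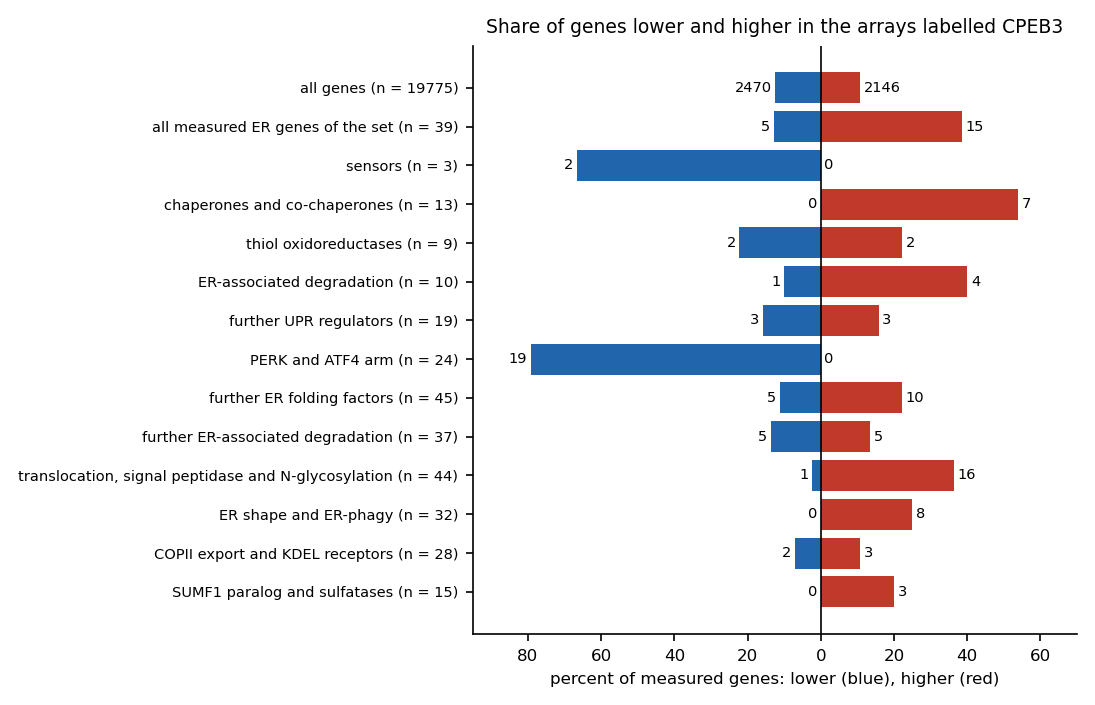
Percent of measured genes lower (left, blue) and higher (right, red) in the arrays labelled CPEB3 at a limma adjusted p under 0.05 (x axis), for all genes, for the 39 ER genes and their roles, and for the other fixed lists; numbers beside bars are counts of genes. Chaperones have 7 of 13 higher and 0 lower, and the PERK and ATF4 arm has 19 of 24 lower and 0 higher.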

How the data were processed

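The authors deposited linear intensity values, 1 for each array and probe set, normalized with RMA per the submitters' processing notes. The RMA software, the step back from RMA's log scale and any genome build: not given in the sources used here. RMA makes the arrays' distributions alike (medians 14.8 to 15.2), so total RNA per cell is not measured. The number of arrays limits the precision. Log2 was taken of every value. Of 54675 probe sets, 62 were controls, 41091 had 1 gene symbol, 1801 several and 11721 none; symbols were compared with RefSeq (GRCh38.p14) and 0 were updated. For each of 19775 genes the brightest probe set that names no other gene was used (mean log2 of the 6 arrays). Groups came from the titles. Differences are CPEB3 minus NC, from limma 3.58.1 under R 4.3.3 (group as the only term in lmFit, then eBayes, two-sided; Benjamini-Hochberg adjustment over all genes, or over all 54613 non-control probe sets for values by probe set; threshold 0.05).

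All members are named; values in every array are given for those past the threshold without overlap, for those whose probe sets disagree past the threshold, and for ATF6, XBP1, ERN1, HSPA5, HSP90B1 and ATL3. The arrays of PDIA3 and DERL1 are given too, chosen after their values were seen. From each other list, up to 4 genes past the threshold with the largest difference are named; ATF4, EIF2AK3, GANAB, PRKCSH, MOGS, TRIM5 and ZNF143-AS1 were added after their values were seen. The members, lists and alternatives were chosen with earlier results of these data known. The fit was tested on simulated data. No test on lists was made. Promoter windows came from RefSeq; figures were drawn with matplotlib 3.10.9.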

Additional observations from a re-analysis of the deposited data

How the results depend on the processing

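The 39 genes were refitted under 17 alternatives (how probe sets stand for a gene, dim genes, scaling, variance model, array weights, replicate block, each array left out). Of 656 refits of single genes, 570 kept direction and side of the threshold. DNAJC3, SDF2L1, CALR, SDF2, CRELD2, DNAJC10, OS9, ATL3 and SUMF1 kept their call under every alternative that measured them; no gene that was lower did. With spike-in centring 23 members were higher (all 15 of the first fit among them) and 2 lower, 109 of the other ER genes higher and 3 lower, and 7766 of all genes higher and 1038 lower. With the mean of all probe sets 3 members were lower. At a threshold of 0.01, 1083 (all genes higher) and 1520 (all genes lower) passed, and the other ER genes 25 and 7. The other ER genes had 6 lower without _s_at and _x_at probe sets, 31 without dim genes and 31 with an intensity trend. The members' median difference became 0.22 with the probe set of largest variance, 0.11 without _s_at and _x_at probe sets, 0.12 with quantile normalization once more and 0.27 with spike-in centring; ATL3's second probe set became 0.34 with the last and passed. The cause of these shifts was not tested, other than that spike-in centring adds 1 constant per array.

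Leaving out 1 array at a time gave 12 to 15 members higher, 4 to 6 lower and a median difference of 0.0657 to 0.12. It gave 34 to 39 other ER genes higher and 10 to 16 lower, and over all genes 1512 to 1942 higher and 1861 to 2412 lower. The ATL3 probe sets ranged over 1.14 to 1.24, 0.08 to 0.22 and 0.03 to 0.08. These fits have fewer samples.

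No pairing by replicate number was seen: deviations of same-numbered arrays correlated at 0.00027, -0.017 and 0.12, and 2 of 6 arrays correlated best with their own number. So few arrays cannot show whether same-numbered samples shared a day or batch. With the replicate block 14 members were higher and 6 lower; CANX lost its call (limma, adjusted p = 0.0564) and TXNDC11 gained one (limma, adjusted p = 0.0442).

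Signs turned as follows. With the mean of probe sets: HSP90B1 -0.00027, ERO1B -0.0909, DERL1 0.23, DERL3 0.10, SEC63 -0.0056. With the largest variance: XBP1 0.15, HSP90B1 -0.0050, CANX -0.0826, ERO1B -0.25, DERL1 0.51, DERL3 0.22, SEC63 -0.18. Without _s_at and _x_at probe sets: DNAJB9 -0.0066, ERP44 0.14, HERPUD1 -0.10, DERL1 0.46, DERL3 0.22. With median centring: HSP90B1 -0.0108, SEC61B -0.0070. With quantile normalization: DERL1 0.0088, DERL3 0.0065. With spike-in centring: P4HB 0.0554, ERP29 0.13, DERL1 0.15, DERL3 0.17, EDEM2 0.0043. Leaving out arrays, HSP90B1 ranged from -0.0220 to 0.0266, MANF from -0.0059 to 0.0282, DERL3 from -0.0804 to 0.0535 and SEC61B from -0.0111 to 0.0269. XBP1, CANX, ERP44 and HERPUD1 had been past the threshold; the cause was not tested, and each of these settings reads another probe set.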
